A study of Mus musculus with 24 samples.

Results

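The 10 genes described here encode amino acid carriers of the plasma membrane, among them the cystine transporter Slc7a11, and were chosen by name from the 33034 genes counted. The cells were MOVAS, an immortal line from the smooth muscle of a mouse aorta. All 10 had an entry under their symbol (Slc7a11, Slc7a5, Slc3a2, Slc7a1, Slc7a3, Slc1a4, Slc1a5, Slc38a1, Slc38a2 and Slc6a9), and all 10 passed the filter on low counts in every fit used. RNA was sequenced in 24 libraries, 3 for each of 8 groups. Unedited cells received vehicle (WT vehicle) or rhCTHRC1, recombinant human CTHRC1, a secreted protein with a collagen-like repeat (WT rhCTHRC1). Unedited cells given an inhibitor of ADAM9, a membrane-anchored metalloprotease, received vehicle or rhCTHRC1 (ADAM9i vehicle, ADAM9i rhCTHRC1). Cells knocked out at Rosa26, a locus whose editing serves as a control, received vehicle or rhCTHRC1 (Rosa26-KO vehicle, Rosa26-KO rhCTHRC1), and cells knocked out at Adam9 likewise (Adam9-KO vehicle, Adam9-KO rhCTHRC1). The labels name neither the inhibitor nor a dose or a time, and do not say whether an edited line is 1 clone or a pool. They also do not say whether the 3 libraries of a group came from separate cultures, so p-values measure the spread between these libraries, which may be technical.

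Amino acid carriers set how fast a cell can take up the substrates of protein synthesis, nucleotide synthesis and glutathione. Slc3a2 is a heavy chain that brings several light chains to the cell surface. Its light chain Slc7a11 imports cystine, the source of cysteine for glutathione, in exchange for glutamate, and its light chain Slc7a5 takes up leucine and other large neutral amino acids. Slc7a1 and Slc7a3 carry arginine, lysine and ornithine. Slc1a4 and Slc1a5 exchange small neutral amino acids such as alanine, serine, cysteine and, for Slc1a5, glutamine. Slc38a1 and Slc38a2 take up glutamine and alanine together with sodium, and Slc6a9 takes up glycine. When amino acids run short or the endoplasmic reticulum is stressed, the transcription factor ATF4 raises many of these genes by binding, with a partner, to C/EBP-ATF response elements. Slc7a11 is also a known target of NRF2, which binds antioxidant response elements.

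Upstream windows were searched for both elements because members of this set moved together in several comparisons. RefSeq promoter windows on GRCm38.p6, from 250 bases before to 50 bases after a start, were matched by symbol for 6 of the 10 genes (Slc7a11, Slc6a9, Slc7a1, Slc1a4, Slc38a2 and Slc3a2), in 9 windows. The letters searched on both strands were TGATGNAA, for the C/EBP-ATF response element, and TGACNNNGC, for the antioxidant response element, and no window of the 6 genes held both. TGATGNAA was found in the windows of 2 of the 6 members, Slc7a11 and Slc1a4. It was found in 3.97% of all 32851 windows and for 4.51% of the 27025 genes with a window. The Slc7a11 window held it 2 times, the first from -66 to -59 on the gene's strand and the second from -47 to -40 on the other strand, with 11 bases between them. At least 2 matches were found in 23 of all windows, a share of 0.07%. TGACNNNGC was found in windows of Slc6a9, Slc7a1 and Slc38a2, in 12.4% of all windows and for 14.0% of all genes with a window. A match describes the letters of a window, not a bound site. The stretches that hold matches in Slc7a11 (chr3:50443623-50443709, minus strand), Slc1a4 (chr11:20332710-20332767, minus strand), Slc38a2 (chr15:96699747-96699795, minus strand) and Slc7a1 (chr5:148399907-148399965, minus strand) read as follows in the direction of the gene, with the matched letters in capitals.
Slc7a11: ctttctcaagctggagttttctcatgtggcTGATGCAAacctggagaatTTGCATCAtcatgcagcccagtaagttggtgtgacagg
Slc1a4: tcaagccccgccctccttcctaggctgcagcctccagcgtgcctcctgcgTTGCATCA
Slc38a2: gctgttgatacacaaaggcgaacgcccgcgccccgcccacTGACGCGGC
Slc7a1: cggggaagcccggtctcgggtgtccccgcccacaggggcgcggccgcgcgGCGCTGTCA
In Slc7a11 the first match and the second are the same 8 letters on opposite strands, and the Slc1a4 match runs from -4 to 4.

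Each library held 53135752 to 65833125 counts in genes. The 3 WT vehicle libraries stood apart from the other 21: their scores on the first principal component (24.9% of variance) were 114.5 to 119.3, against -54.3 to 7.2, and 3.21% to 3.22% of their counts were mitochondrially encoded against 3.61% to 4.37%. The WT response is for this reason set against 2 further vehicle groups too, and those comparisons include any effect of editing or of the inhibitor. Of 9 smooth-muscle markers, 7 reached a mean of 1 CPM (library-scaled counts, after TMM normalization), and their summed level was 848 to 951 CPM in WT vehicle and 1739 to 2185 CPM elsewhere. Vim, at 568 to 1679 CPM over the libraries, made up most of this sum, which therefore mainly follows Vim. Vim and Smtn were well expressed throughout, while the late contractile markers Myh11 and Cnn1 reached at most 0.854 and 1.87 CPM. Summed fibroblast markers (3 of 6 at a mean of 1 CPM, Lum at 0 in some libraries) were at 77.1 to 83.2 CPM in WT vehicle and 274 to 503 CPM elsewhere. Summed endothelial markers (2 of 6, mainly Vwf, with Cdh5 and Cldn5 at or near 0) were at 24.3 to 27.2 CPM in WT vehicle and 2.46 to 13.1 CPM elsewhere. Macrophage and epithelial markers summed to at most 24.02 and 8.81 CPM. Adam9 was lower but present in Adam9-KO cells, at 139 ± 10.1 CPM (SD, n = 3) under vehicle against 236 ± 6.35 CPM in Rosa26-KO vehicle. It was also lower in ADAM9i than in WT, at 164 ± 6.48 against 249 ± 35.3 CPM with vehicle. With rhCTHRC1 these 2 levels were 206 ± 13.9 and 291 ± 36.5 CPM. A gene's total count does not show the edit itself. In bulk RNA, fewer cells of a type and less RNA per cell cannot be told apart.

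Slc7a11 lies on chromosome 3 from 49892526 to 50443614 (GRCm38, ENSMUSG00000027737) on the minus strand, and the predicted gene Gm37498 overlaps it on the same strand. Its level was 263, 271 and 267 CPM in the WT vehicle libraries and 55.6, 48.0 and 51.7 CPM in WT rhCTHRC1. It was 41.7, 46.1 and 40.4 CPM in ADAM9i vehicle and 46.0, 45.8 and 46.8 CPM in ADAM9i rhCTHRC1. WT vehicle was above every other library, and the ADAM9i groups overlapped. In Rosa26-KO cells Slc7a11 was at 60.5, 62.4 and 57.8 CPM with vehicle and at 25.96, 25.8 and 21.2 CPM with rhCTHRC1. In Adam9-KO cells it was at 63.8, 64.9 and 57.0 CPM with vehicle and at 63.8, 61.1 and 59.2 CPM with rhCTHRC1. The Rosa26-KO rhCTHRC1 libraries were the lowest of all 24. Ordered by group mean, WT vehicle came first, then Adam9-KO vehicle, Adam9-KO rhCTHRC1 and Rosa26-KO vehicle, whose libraries overlapped, then WT rhCTHRC1, ADAM9i rhCTHRC1, ADAM9i vehicle and last Rosa26-KO rhCTHRC1.

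Slc7a5 and Slc3a2, the light and heavy chain of the large neutral amino acid transporter, lie on chromosome 8 from 121881150 to 121907694 (ENSMUSG00000040010) and on chromosome 19 from 8706882 to 8723369 (ENSMUSG00000010095). Slc7a5 was at 1437, 1493 and 1498 CPM in WT vehicle, 439, 433 and 424 CPM in WT rhCTHRC1, 319, 337 and 314 CPM in ADAM9i vehicle, and 329.6, 319.8 and 337 CPM in ADAM9i rhCTHRC1. It was at 457, 477 and 443 CPM in Rosa26-KO vehicle, 172, 171 and 139.7 CPM in Rosa26-KO rhCTHRC1, 526, 481 and 450.1 CPM in Adam9-KO vehicle, and 465, 503 and 452 CPM in Adam9-KO rhCTHRC1. As with Slc7a11, WT vehicle was the highest group and Rosa26-KO rhCTHRC1 the lowest, without overlap with any other group, while the Adam9-KO groups overlapped each other and Rosa26-KO vehicle. Slc3a2 was at 329, 344 and 326 CPM in Rosa26-KO vehicle and at 141, 141 and 138 CPM in Rosa26-KO rhCTHRC1. It was at 349, 334 and 315 CPM in Adam9-KO vehicle and at 321, 335 and 306 CPM in Adam9-KO rhCTHRC1. The 3 treated Rosa26-KO libraries thus lay within a few CPM of each other and far below all other groups, of which WT vehicle was the highest at 1149.8 ± 19.9 CPM. The means of the remaining groups ran from 268 ± 4.88 CPM in ADAM9i rhCTHRC1 to 333 ± 9.29 CPM in Rosa26-KO vehicle. Libraries of Rosa26-KO vehicle overlapped those of Adam9-KO vehicle, Adam9-KO rhCTHRC1 and WT rhCTHRC1.

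Slc7a1, the main carrier of arginine and lysine in many cells, lies on chromosome 5 from 148327410 to 148399904 (ENSMUSG00000041313). It was at 1005 ± 9.13 CPM in WT vehicle and 129 ± 4.48 CPM in Rosa26-KO rhCTHRC1, the highest and lowest group. Rosa26-KO vehicle was second by mean, at 312 ± 3.25 CPM, but its libraries overlapped those of both Adam9-KO groups. Slc7a3, a second carrier of these amino acids, lies on chromosome X from 101079210 to 101085405 (ENSMUSG00000031297) and had the fewest counts, 258 to 1372 per library. It was at 23.0, 22.4 and 25.3 CPM in WT vehicle and at 14.6, 13.3 and 13.8 CPM in WT rhCTHRC1. It was at 4.91, 5.71 and 4.42 CPM in Rosa26-KO vehicle, 6.02, 6.79 and 6.91 CPM in Rosa26-KO rhCTHRC1, 4.93, 4.69 and 4.33 CPM in Adam9-KO vehicle, and 4.75, 4.95 and 4.87 CPM in Adam9-KO rhCTHRC1. Its WT rhCTHRC1 libraries were above those of every group but WT vehicle, and it was the carrier, of these 10, whose 3 treated Rosa26-KO libraries lay above their vehicle libraries.

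Slc1a4 (chromosome 11 from 20302180 to 20332713, ENSMUSG00000020142) was at 188 ± 1.79 CPM in WT vehicle and 22.1 ± 0.760 CPM in Rosa26-KO rhCTHRC1, the highest and lowest group. Slc1a5 (chromosome 7 from 16781340 to 16798274, ENSMUSG00000001918) was at 568 ± 28.8 CPM and 122 ± 5.39 CPM in the same groups. Slc38a1 and Slc38a2 are neighbours on chromosome 15, from 96571418 to 96642913 (ENSMUSG00000023169) and from 96687392 to 96699730 (ENSMUSG00000022462). Slc38a1 was at 602 ± 2.30 CPM in WT vehicle, 289 ± 1.72 CPM in Rosa26-KO vehicle, 190.2 ± 1.58 CPM in Rosa26-KO rhCTHRC1 and 262 ± 3.96 CPM in Adam9-KO vehicle. Slc38a2 was at 1945 ± 24.1 CPM in WT vehicle and spanned only 843 ± 32.8 to 1084 ± 47.9 CPM over the other 7 groups. Its order among these was not resolved at the lower end, since Rosa26-KO rhCTHRC1 (856, 806 and 868 CPM), Adam9-KO vehicle (844, 857 and 879 CPM) and Adam9-KO rhCTHRC1 (888, 829 and 945 CPM) overlapped. Slc6a9 (chromosome 4 from 117834506 to 117875198, ENSMUSG00000028542) was at 376 ± 13.1 CPM in WT vehicle and 52.4 ± 6.88 CPM in Rosa26-KO rhCTHRC1. B4galt2, Ccdc24 and Gm17114 overlap Slc6a9 on the other strand, and Gm37854 and Gm37826 overlap Slc7a11 likewise. Whether the authors counted by strand is not given in the sources used here, so reads of such partners cannot be told apart from those of the 2 genes, and the other 8 genes overlap no annotated gene.

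**Figure D1:**
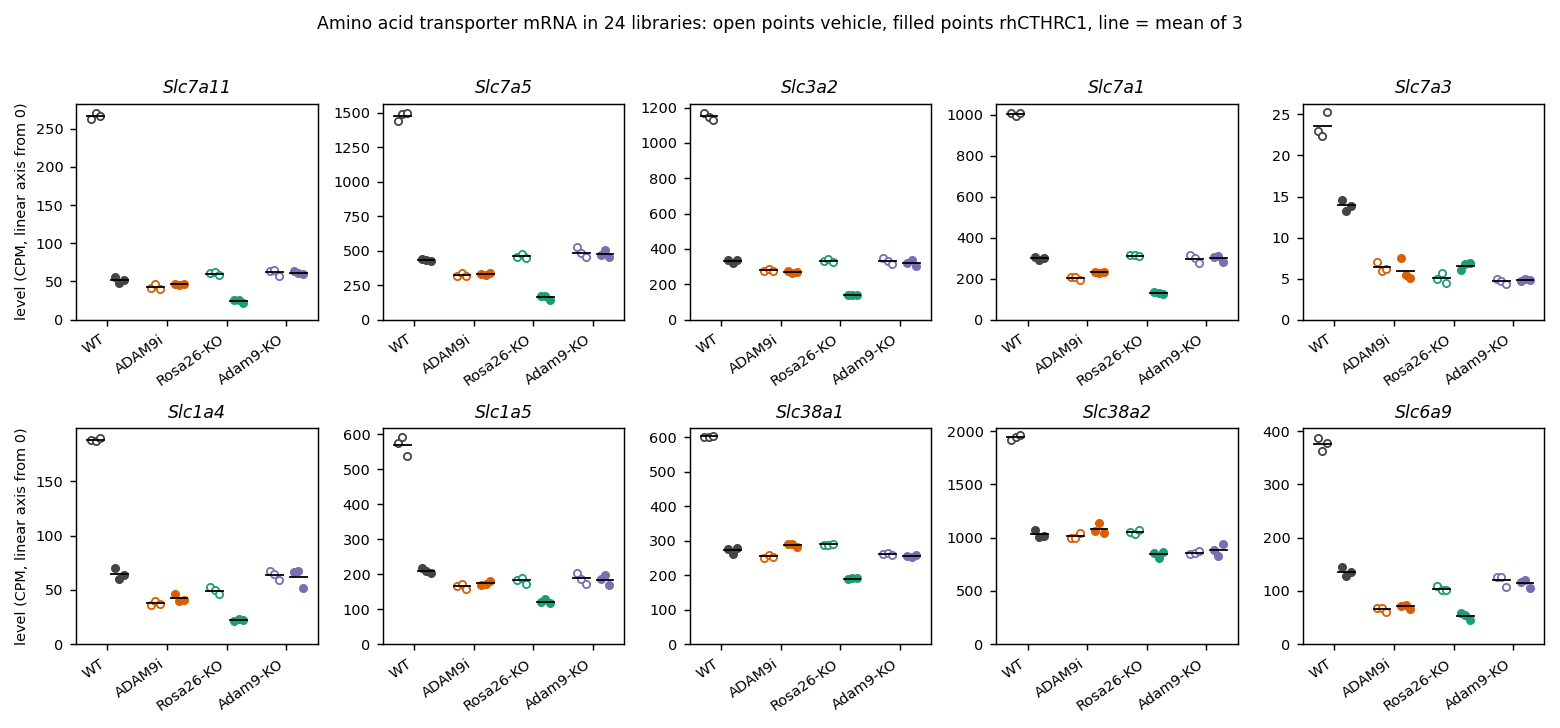
TMM-scaled CPM (y axis, linear, from 0) of the 10 carriers in the 24 libraries, by cell background (x axis); open points are vehicle, filled points rhCTHRC1, and lines the mean of 3 libraries. WT vehicle is the highest group for all 10 genes, and for 9 of them, all but Slc7a3, the filled Rosa26-KO points lie below the open ones while the Adam9-KO points lie level.

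Per length, on the authors' FPKM scale (fragments scaled by gene length and library depth), Slc38a2, Slc7a5 and Slc3a2 held the first 3 places in every group, with Slc7a11 in place 9 and Slc7a3 in place 10. In Rosa26-KO vehicle the FPKM levels were 110.5 ± 4.45 for Slc7a5, 106 ± 1.35 for Slc38a2 and 84.2 ± 2.59 for Slc3a2, and the first of these did not differ from the second beyond their spread. Next came Slc1a5 at 39.0 ± 1.92, Slc7a1 at 24.2 ± 0.350 and Slc6a9 at 18.1 ± 0.807 FPKM, then Slc38a1 at 15.0 ± 0.0266 and Slc1a4 at 11.2 ± 0.733 FPKM, and last Slc7a11 at 3.86 ± 0.164 and Slc7a3 at 1.17 ± 0.160 FPKM. The lengths implied by the counts, library totals and FPKM exceed the longest annotated transcript for all 10 genes. Where a gene's joined exons are longer than that transcript, this lowers its FPKM. For Slc1a4 the joined exons and the longest transcript are both 3.926 kb. For Slc7a11 the implied length was 15.1 to 15.4 kb, its exons joined 13.9 kb and its longest transcript 9.22 kb. For Slc38a1 these were 18.7 to 19.0, 17.2 and 7.27 kb. The implied lengths are approximate, since they vary between libraries and lie above the joined exons. With the longest transcript as the length, the same 3 genes led and Slc7a11 and Slc7a3 came last in every group, and Slc38a1 lay above Slc1a4 in all 8 groups, against 4 by the authors' FPKM. Slc7a5 and Slc3a2 form 1 transporter, and their FPKM ratio was 1.31 ± 0.0158 in Rosa26-KO vehicle and 1.09 ± 0.115 in Rosa26-KO rhCTHRC1. In Adam9-KO cells it was 1.39 ± 0.0405 with vehicle and 1.40 ± 0.0252 with rhCTHRC1. The ratio of Slc7a11 to Slc3a2 was 0.0588 ± 0.00162 in WT vehicle and between 0.0388 and 0.0485, as group means, in the other 7 groups.

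In Rosa26-KO cells rhCTHRC1 lowered 9 of the 10 carriers and raised 1. The share of all 18594 genes tested that fell was 23.3%, and 22.0% rose. The median log2 change was -1.08 over the 10 carriers and 0.03 over all genes tested. Slc7a5 fell most, by 1.51 ± 0.09 (log2 change ± SE), which left 0.351 of its vehicle level, and then Slc7a11 by 1.31 ± 0.07, Slc7a1 by 1.27 ± 0.04 and Slc3a2 by 1.25 ± 0.04. These 4 genes hold both light chains named above, their shared heavy chain and an arginine carrier, and their adjusted p (edgeR's quasi-likelihood test with Benjamini-Hochberg adjustment over all genes tested) ran from 3.56e-14 for Slc3a2 to 1.99e-07 for Slc7a5. Slc1a4 fell by 1.16 ± 0.08 and Slc6a9 by 0.99 ± 0.09, while Slc38a1 and Slc1a5, at 0.658 and 0.670 of their vehicle level, and Slc38a2, at 0.8004, fell least. Treated and vehicle libraries did not overlap for any of the 10 genes. The share of all genes without such overlap is not given here, so this count is a description. The replicate 3 library of Rosa26-KO rhCTHRC1 was the lowest for Slc7a5, Slc7a11, Slc7a1, Slc3a2, Slc1a5 and Slc6a9.

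Slc7a3 alone rose, by 0.39 ± 0.14 (adjusted p = 0.0245 by edgeR, higher in 3 of 3 libraries). This call rests on few counts. It was lost without replicate 1 of Rosa26-KO vehicle (0.37, adjusted p = 0.0756), replicate 3 of Rosa26-KO vehicle (0.29, adjusted p = 0.134), replicate 2 of Rosa26-KO rhCTHRC1 (0.37, adjusted p = 0.0742) or replicate 3 of Rosa26-KO rhCTHRC1 (0.35, adjusted p = 0.0829). Summed fibroblast markers moved with treatment in these cells, from 303 to 329 CPM with vehicle to 483 to 503 CPM with rhCTHRC1, summed endothelial markers from 2.46 to 2.99 CPM to 7.15 to 7.80 CPM, and summed smooth-muscle markers from 1919.6 to 1948 CPM to 1789 to 1831 CPM. Of the 9 smooth-muscle markers 3 rose and 3 fell, beside 22.0% and 23.3% of all genes tested. The extremes were Des at 1.03 ± 0.20 and Acta2, the smooth-muscle actin, at -3.35 ± 0.08 on the log2 scale. Of 4 endothelial markers tested, 1 rose, Vwf at 2.08 ± 0.23, and 1 fell, Kdr at -0.84 ± 0.31. Among 6 fibroblast markers 4 rose and 0 fell. In Adam9-KO cells these sums were 344 to 353, 3.80 to 4.89 and 2116 to 2185 CPM with vehicle and 299 to 342, 3.47 to 5.11 and 2069.6 to 2125 CPM with rhCTHRC1. The part of these markers in the falls was not tested. Scaling by library size alone called 5084 genes higher and 3486 lower in this response, against 4087 and 4326 with TMM, and kept the direction and call of all 10 carriers.

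In Adam9-KO cells none of the 10 carriers passed the threshold. Across all 18594 genes tested 0% rose and 0% fell by edgeR, though 1387 genes, none of them a carrier, had an unadjusted p under 0.05, and DESeq2 called 37 genes and limma on FPKM 0. The carriers' log2 changes ran from -0.06 (Slc6a9) to 0.07 (Slc7a3), with a median of -0.02. The 95% interval was -0.15 to 0.14 for Slc7a11, -0.22 to 0.16 for Slc7a5, -0.13 to 0.03 for Slc3a2 and -0.07 to 0.11 for Slc7a1. These intervals lie apart from the falls of the same genes in Rosa26-KO cells. Slc38a1 alone had treated libraries that did not overlap the vehicle libraries, with a change of -0.03 ± 0.03. With 3 libraries per group and no share over all genes beside it, this is no result about Slc38a1.

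The difference between the 2 responses was tested itself, as an interaction. For 9 of the 10 carriers the log2 change in Adam9-KO lay above that in Rosa26-KO, where these genes fell. Of all genes, 20.1% had a higher and 17.8% a lower log2 change in Adam9-KO. The median difference was 1.03 over the carriers and -0.02 over all genes. It was 1.48 ± 0.12 for Slc7a5, 1.30 ± 0.10 for Slc7a11, 1.29 ± 0.06 for Slc7a1, 1.20 ± 0.06 for Slc3a2 and 1.13 ± 0.12 for Slc1a4 on the log2 scale. Slc6a9 (0.93 ± 0.13), Slc38a1 (0.57 ± 0.04), Slc1a5 (0.56 ± 0.09) and Slc38a2 (0.37 ± 0.06) also passed, and Slc7a3 did not (-0.32 ± 0.19, adjusted p = 0.217 by edgeR). With library size alone as the scaling, 2916 genes had a higher and 4153 a lower log2 change in Adam9-KO, against 3743 and 3307 with TMM. The same 9 carriers passed in the same direction.

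**Figure D2:**
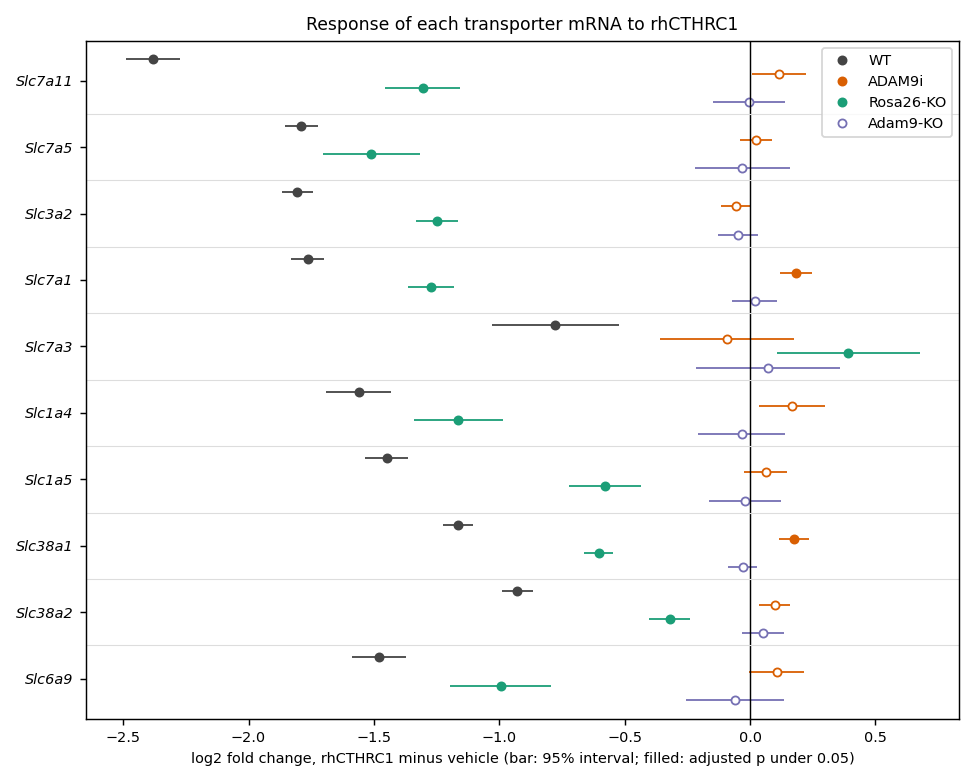
Log2 fold change of each carrier from vehicle to rhCTHRC1 (x axis) in WT, ADAM9i, Rosa26-KO and Adam9-KO cells, with 95% intervals as bars; filled points have an adjusted p under 0.05. The WT and Rosa26-KO points lie below 0, except Slc7a3 in Rosa26-KO cells at 0.39, and the Adam9-KO points lie between -0.06 and 0.07.

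Before rhCTHRC1, the edited lines were close to each other for most of these genes. Under vehicle, Adam9-KO differed from Rosa26-KO in 3 of the 10 carriers, 1 higher and 2 lower, while 6.37% of all genes were higher and 8.83% lower. Slc1a4 was higher by 0.35 ± 0.08 (adjusted p = 0.00876 by edgeR), from 49.4 ± 3.04 to 63.4 ± 4.31 CPM. Slc38a2 and Slc38a1, the sodium-coupled glutamine carriers, were lower, with log2 differences of -0.31 ± 0.04 and -0.16 ± 0.03 (adjusted p = 7.81e-05 and 0.000965 by edgeR). Slc7a11 (0.03), Slc7a5 (0.07), Slc3a2 (-0.01) and Slc1a5 (0.03) did not pass, and neither did Slc6a9 (0.19), Slc7a1 (-0.09) or Slc7a3 (-0.12). Over all genes the count was 1184 higher and 1641 lower with TMM, 1764 and 1011 with library size alone, and 1692 and 815 with limma on FPKM. The 3 carrier calls kept their direction and side of the threshold under each of these.

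With rhCTHRC1, 8 of the 10 carriers were higher in Adam9-KO than in Rosa26-KO cells and 1 was lower, while 21% of all genes were higher and 19.6% lower. The median difference was 1.15 over the carriers and -0.02 over all genes. Slc7a5 was higher by 1.55 ± 0.09 (2.92-fold), Slc1a4 by 1.48 ± 0.09 (2.78-fold) and Slc7a11 by 1.33 ± 0.07 (2.51-fold), without overlap of libraries. Slc7a1, Slc3a2 and Slc6a9 were higher by 1.20, 1.19 and 1.12, and Slc1a5 and Slc38a1 by 0.59 and 0.42. Slc38a2 did not pass (0.07 ± 0.04), but did without replicate 2 of Adam9-KO rhCTHRC1 (0.12, adjusted p = 0.00962 by edgeR). Slc7a3 was lower, at -0.44 ± 0.14, a call lost without replicate 3 of Rosa26-KO rhCTHRC1 (-0.40, adjusted p = 0.0530 by edgeR). These differences share the treated Rosa26-KO libraries with the Rosa26-KO response above.

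In WT cells all 10 carriers were lower with rhCTHRC1 than with vehicle, and 32.2% of all 18816 genes tested rose and 30.8% fell. The median log2 change was -1.52 over the carriers and 0.03 over all genes. Slc7a11 had the largest fall, of 2.38 ± 0.05, to 0.192 of its vehicle level (adjusted p = 7.24e-18 by edgeR). The falls of Slc3a2 (1.81), Slc7a5 (1.79), Slc7a1 (1.76) and Slc1a4 (1.56) came next, and those of Slc38a2 (0.93) and Slc7a3 (0.78) were the smallest, as log2 changes of the opposite sign. For these 10 genes no treated library overlapped a vehicle library, a description without the share over all genes beside it. Scaling by library size alone moved the median of all genes by 0.18, with 7369 genes higher and 4637 lower against 6053 and 5799 with TMM, and left all 10 carriers lower and called.

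This fall rests on the WT vehicle libraries, which stood apart from all others. The carriers were also lower in other vehicle libraries. Under vehicle, ADAM9i was lower than WT for all 10 carriers (29.9% of all genes higher, 27.5% lower), with a median of -2.12 over the carriers, and Rosa26-KO was lower than WT for all 10 too (27.9% higher, 25.8% lower), with a median of -1.74. The extremes were -2.65 ± 0.05 for Slc7a11 and -0.95 ± 0.03 for Slc38a2 in ADAM9i, and -2.23 ± 0.13 for Slc7a3 and -0.88 ± 0.04 for Slc38a2 in Rosa26-KO.

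Set against Rosa26-KO vehicle instead, WT rhCTHRC1 was higher for 4 carriers and lower for 2, while 24.4% of all genes were higher and 25.7% lower, with a median of -0.01 over the carriers. Slc7a3 was higher by 1.47 ± 0.13, Slc6a9 by 0.39 ± 0.08, Slc1a4 by 0.38 ± 0.08 and Slc1a5 by 0.21 ± 0.06. Slc7a11 and Slc38a1 were lower, at -0.22 ± 0.06 and -0.09 ± 0.03, and with library size alone neither was called (-0.09 and 0.03, a change of sign for Slc38a1). Slc7a5 (-0.09), Slc7a1 (-0.06), Slc3a2 (-0.0008) and Slc38a2 (-0.03) did not pass with TMM, and with library size alone Slc3a2 (0.12) and Slc38a2 (0.10) were called higher. Library size alone moved the median of all genes by 0.12 here and gave 6230 genes higher and 3959 lower, against 4851 and 5113 with TMM.

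Against ADAM9i vehicle, WT rhCTHRC1 was higher for 9 carriers and lower for 0, while 24.6% of all genes were higher and 25.8% lower, with a median of 0.38 over the carriers. The largest of these were Slc7a3 (1.13 ± 0.12) and Slc6a9 (1.05 ± 0.08), and the smallest was Slc38a1 (0.09 ± 0.03), whose call was lost without replicate 3 of WT rhCTHRC1 (0.06, adjusted p = 0.0846 by edgeR). Slc38a2 did not pass (0.03 ± 0.04), and with library size alone was called higher (0.14). That scaling moved the median of all genes by 0.11 and gave 6078 genes higher and 4076 lower, against 4886 and 5138 with TMM. WT rhCTHRC1 thus lay below WT vehicle for all 10 carriers and above ADAM9i vehicle for 9, and against Rosa26-KO vehicle 4 were higher and 2 lower. The comparisons with ADAM9i and Rosa26-KO vehicle also include any effect of the inhibitor or of editing.

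With the ADAM9 inhibitor, rhCTHRC1 changed few of these genes. Slc7a1 was at 203 ± 8.94 CPM with vehicle and rose to 231 ± 2.97 CPM (0.18 ± 0.03 in log2, adjusted p = 0.00189 by edgeR) and Slc38a1 was at 254 ± 4.03 CPM and rose to 287 ± 5.39 CPM (0.17 ± 0.03, adjusted p = 0.00161), in 3 of 3 libraries each. None of the 10 fell, and over all genes 2.66% rose and 1.32% fell. The median was 0.10 over the carriers and -0.002 over all genes. Slc7a11 (0.11 ± 0.05) and Slc7a5 (0.02 ± 0.03) did not pass. The other members lay between -0.09 (Slc7a3) and 0.17 (Slc1a4), and DESeq2 also called Slc38a2 (0.10, adjusted p = 0.0207).

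As an interaction, the log2 change in ADAM9i lay above that in WT, a fall, for all 10 carriers. Of all genes, 27.8% were higher and 28.3% lower in this difference, and its median was 1.66 over the carriers. It ranged from 0.68 ± 0.18 for Slc7a3 to 2.49 ± 0.07 for Slc7a11. This difference uses the WT vehicle libraries. Treated cells alone differed less: with rhCTHRC1, ADAM9i was lower than WT for 8 carriers and higher for 2 (28.0% of all genes higher, 26.1% lower), with a median of -0.33. Slc7a3 (-1.21 ± 0.13) and Slc6a9 (-0.93 ± 0.05) were the lowest, and Slc7a11 was lower by little (-0.15 ± 0.05, adjusted p = 0.0157 by edgeR), a call lost without replicate 1 of WT rhCTHRC1 (-0.11, adjusted p = 0.0981). Slc38a1 (0.09 ± 0.03) and Slc38a2 (0.08 ± 0.03) were higher with TMM and lay at -0.05 and -0.06, not called, with library size alone. Slc38a1 lost its call without replicate 1 of ADAM9i rhCTHRC1 (0.08) or replicate 2 of WT rhCTHRC1 (0.06). Slc38a2 lost its call without replicate 1 (0.08) or 2 (0.04) of ADAM9i rhCTHRC1 or replicate 2 (0.06) or 3 (0.07) of WT rhCTHRC1. Library size alone moved the median of all genes by -0.19 in the interaction, with 4113 genes higher and 6558 lower against 5222 and 5318, and by -0.14 with rhCTHRC1, with 4065 higher and 6307 lower against 5273 and 4906.

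**Figure D3:**
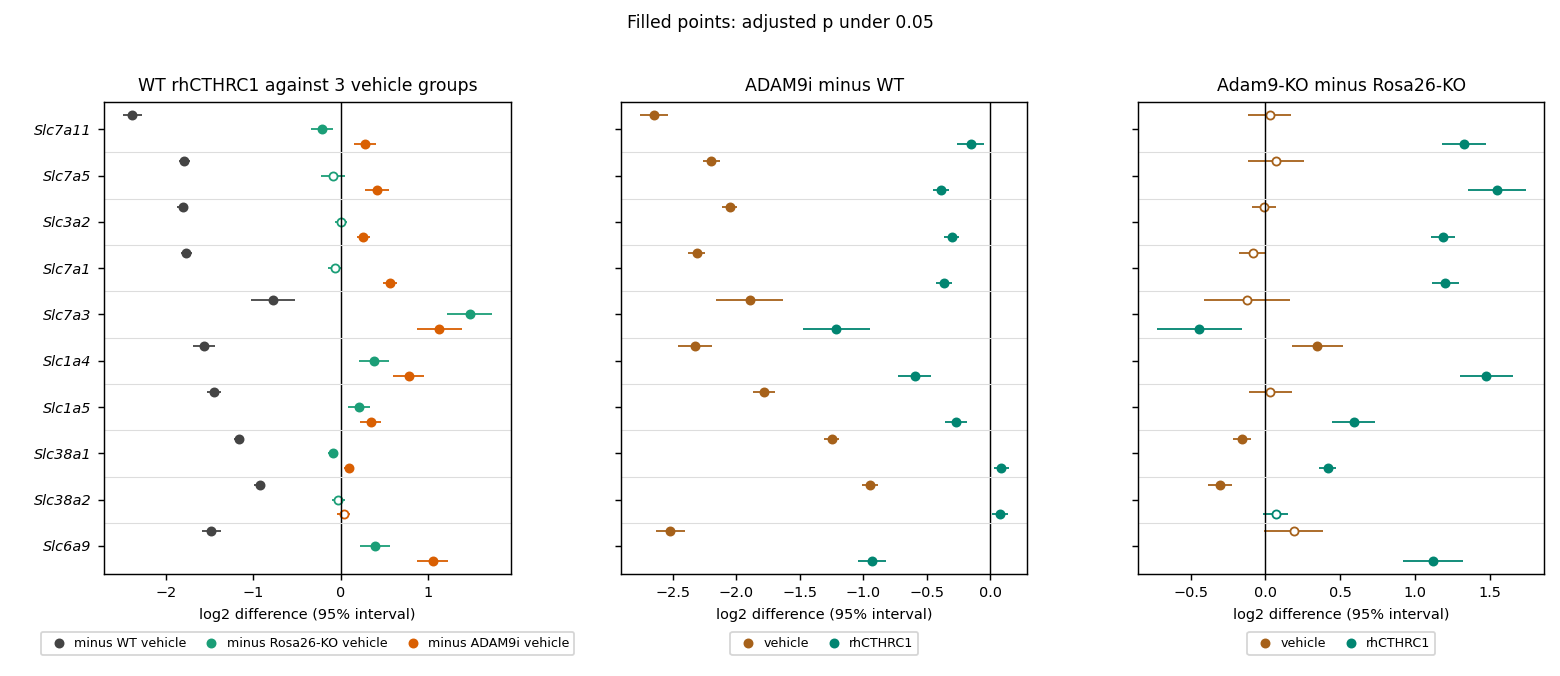
Log2 differences of each carrier (x axes, 95% intervals as bars, filled points with an adjusted p under 0.05): WT rhCTHRC1 against the 3 vehicle groups (left), ADAM9i minus WT (middle) and Adam9-KO minus Rosa26-KO (right), each with vehicle and with rhCTHRC1. Against WT vehicle all 10 points lie below 0, against ADAM9i vehicle 9 are called above 0, and on the right 8 carriers are called higher with rhCTHRC1 but 1 with vehicle.

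Levels of most carriers were correlated across libraries, and those of Slc7a3 and, without WT vehicle, Slc38a2 were less so. Leaving out Slc7a3, a choice made after its values were seen, the median Pearson r of the other 36 pairs, on log2 CPM, was 0.963 over 24 libraries (from 0.780 to 0.991) and 0.877 over the 21 without WT vehicle (from 0.064 to 0.987). These are descriptions over libraries that share the groups. The median r of a carrier to the other 9 was 0.682 for Slc7a3 and 0.850 for Slc38a2 over 24 libraries. Over the 21 libraries it was -0.01 for Slc7a3 and 0.289 for Slc38a2, against 0.916 for Slc7a5 and 0.876 for Slc7a11. Among all genes of at least 1 CPM, the levels most like those of Slc7a11 over the 21 libraries were those of Aldh18a1 (r = 0.990), an enzyme of proline synthesis, Slc7a5 (0.987) and Cars (0.984), the cytosolic cysteinyl-tRNA synthetase. Over 24 libraries they were Slc7a1 (0.991), Cyb5r1 (0.991) and Sars (0.990), the seryl-tRNA synthetase. Over the 21 libraries Slc3a2 was most like Mthfd2 (0.984), a mitochondrial enzyme of folate metabolism, Slc1a4 like Trib3 (0.983), Slc1a5 like Atf3 (0.967), and Slc7a5 and Slc7a1 like Cars (0.989) and Slc7a5 (0.981). Slc38a1 was most like Stc2 (0.9499), with Atf4 among its closest 3 (0.934), Slc6a9 like Jdp2 (0.972) and Slc38a2 like Txlng (0.901). Slc7a3 was most like Trim25 (0.967) and Pim3 (0.957), neither of which was among the 3 genes most like any other carrier.

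Other amino acid genes were counted from lists chosen with earlier results of these data known, so their direction is a description. Of 32 other plasma-membrane carriers, 29 had an entry and 18 were tested in the knockout lines, and with rhCTHRC1 in Rosa26-KO cells 4 rose and 3 fell (median log2 change 0.14), beside 22.0% and 23.3% of all genes tested. The extremes were carriers of low level, Slc38a3 at 1.57 ± 0.29 and Slc38a4 at -1.06 ± 0.26. In WT cells 5 of 20 rose and 6 fell, beside 32.2% and 30.8% of all genes, while WT rhCTHRC1 was higher for 7 and lower for 3 against Rosa26-KO vehicle and against ADAM9i vehicle alike. Of all genes, 24.4% were higher and 25.7% lower against Rosa26-KO vehicle, and 24.6% and 25.8% against ADAM9i vehicle. List counts near the share of all genes are no result about a list. With the inhibitor 1 of these carriers rose, beside 2.66% of all genes, the taurine carrier Slc6a6 (0.23 ± 0.04). Of 8 lysosomal carriers tested, 4 rose and 1 fell in Rosa26-KO cells, with Slc38a9, an arginine sensor of the lysosome, at 0.42 ± 0.11 and Slc15a4 at -0.46 ± 0.06. In WT cells 3 of these 8 rose and 2 fell, while WT rhCTHRC1 was higher for 7 and lower for 1 against Rosa26-KO vehicle, and higher for 6 and lower for 1 against ADAM9i vehicle. Of 13 mitochondrial carriers, 3 rose and 3 fell in Rosa26-KO cells, among them Slc25a29 (0.65 ± 0.16), a carrier of basic amino acids, and Slc25a15 (-0.57 ± 0.10), the ornithine carrier, and 3 rose and 7 fell in WT cells, where 5 were higher and 5 lower against either other vehicle group.

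Most amino acid synthesis enzymes and regulators of the ATF4 pathway fell with rhCTHRC1 in Rosa26-KO cells. In Rosa26-KO cells 13 of 17 synthesis enzymes fell and 2 rose (median -1.09), beside 23.3% and 22.0% of all genes tested. Cth, which makes cysteine, was at -1.78 ± 0.11 and Cbs at 1.83 ± 0.31. Of 13 regulators of the ATF4 pathway, 9 fell and 2 rose (median -0.56), with the pseudokinase Trib3 at -2.12 ± 0.11 and the kinase Eif2ak2 at 0.36 ± 0.05. Atf4 itself, named after its values were seen, was at 497 CPM with vehicle and 208 CPM with rhCTHRC1 in Rosa26-KO cells, a log2 change of -1.26 ± 0.04, and at 466 and 475 CPM in Adam9-KO cells, a change of 0.03 ± 0.04. The log2 change in Adam9-KO lay above that in Rosa26-KO for 13 of the synthesis enzymes and below it for 2. The shares of all genes were 20.1% and 17.8%. Asns, the asparagine synthetase, had a difference of 1.65 ± 0.06. For 9 of the 13 regulators the log2 change in Adam9-KO lay above that in Rosa26-KO and for 2 below it, with Trib3 at a difference of 2.05 ± 0.15. In WT cells 13 synthesis enzymes fell and 4 rose, and 10 regulators fell and 3 rose, beside 30.8% and 32.2% of all genes. Against Rosa26-KO vehicle, WT rhCTHRC1 was lower for 11 synthesis enzymes and higher for 4, and lower for 2 regulators and higher for 9. Of all genes 25.7% were lower and 24.4% higher there. Against ADAM9i vehicle, WT rhCTHRC1 was lower for 8 enzymes and higher for 6, and lower for 1 regulator and higher for 9. Of all genes 25.8% were lower and 24.6% higher in that comparison.

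Genes that use cystine, glutamine and arginine were counted in the same way. Of all genes tested, 23.3% fell and 22.0% rose in Rosa26-KO cells, and 30.8% fell and 32.2% rose in WT cells. In WT rhCTHRC1, 25.7% of all genes were lower and 24.4% higher against Rosa26-KO vehicle, and 25.8% and 24.6% against ADAM9i vehicle. List counts near these shares are no result about the list. Of 13 genes of glutathione and cystine use tested, 7 fell and 2 rose in Rosa26-KO cells, with Chac1, which degrades glutathione, at -2.24 ± 0.07 and Ggt7 at 0.77 ± 0.08, and 8 fell and 3 rose in WT cells. Against Rosa26-KO vehicle, 6 of these were lower and 3 higher in WT rhCTHRC1, and against ADAM9i vehicle 7 and 3. With the inhibitor 4 of these rose and 0 fell, beside 2.66% and 1.32% of all genes, led by the glutathione synthetase Gss (0.36 ± 0.07). Of 22 genes of amino acid sensing by mTORC1, 9 fell and 7 rose in Rosa26-KO cells, and 2 sestrins moved in opposite directions, Sesn2 at -1.39 ± 0.11 and Sesn1 at 0.92 ± 0.06. In WT cells 13 of the 22 fell and 7 rose, while 4 were lower and 10 higher against Rosa26-KO vehicle, and 4 lower and 12 higher against ADAM9i vehicle. Of 10 genes of glutamine and arginine use, 5 fell and 0 rose in Rosa26-KO cells, with the spermidine synthase Srm at -1.52 ± 0.07, and 5 fell and 1 rose in WT cells, with 5 lower and 1 higher against Rosa26-KO vehicle and 6 and 0 against ADAM9i vehicle. In Adam9-KO cells no gene of any of these 8 lists was called, as no gene tested was.

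**Figure D4:**
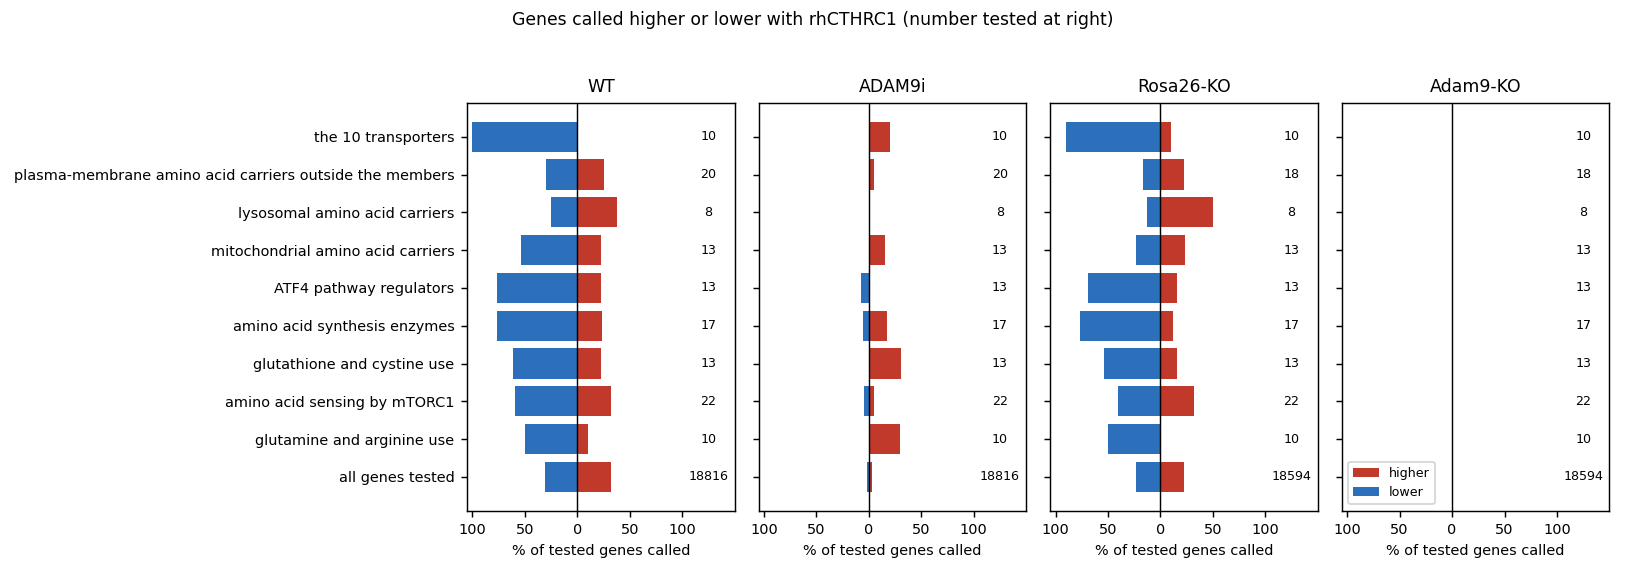
Percent of tested genes called higher (red, to the right) or lower (blue, to the left) with rhCTHRC1 (x axes) in each list (y axis), for WT, ADAM9i, Rosa26-KO and Adam9-KO cells; numbers at the right are genes tested. In Rosa26-KO cells 9 of the 10 carriers and 3 of 18 other plasma-membrane carriers fell. Both sets were chosen with earlier results of these data known, so the contrast between them is a description. In Adam9-KO cells no bar is drawn because no gene was called.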

How the data were processed

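Total RNA of 24 libraries was sequenced as stranded 150-base read pairs, per the labels' protocols. The authors deposited 1 table with a raw count and an FPKM value per gene and library. GRCm38 is the build and HISAT2, StringTie and DESeq2 are the tools listed in the submitters' processing notes. No versions, aligner settings, annotation or strand setting of the counting stand in the labels or headers. The deposited FPKM values divide by a length close to the union of a gene's exons and served for levels per length. Counts were tested with edgeR 4.0.16 in R 4.3.3 (TMM scaling, filterByExpr, robust quasi-likelihood F test, two-sided, Benjamini-Hochberg adjustment over all genes tested, threshold 0.05), over 13 comparisons. WT and ADAM9i libraries were fitted together (12 libraries), Rosa26-KO and Adam9-KO libraries likewise, and comparisons across them in 1 fit of 24. Residual degrees of freedom were 8 and 16. The fit was tested on simulated data. Alternatives were RLE factors, library size alone, no filter, the replicate number as a block, DESeq2 1.42.0, limma 3.58.1 on log2(FPKM + 1), each library left out, 1 fit of all libraries and other vehicle controls. The members and lists were chosen with earlier results of these data known. All 10 carriers are named. From each list and comparison at most the called gene with the largest rise and that with the largest fall, at a mean of at least 1 CPM, are named, and for each carrier the 3 genes most like it. Exceptions are Atf4, named after its values were seen, Adam9, and cell type markers named by level.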

Additional observations from a re-analysis of the deposited data

Results flagged for a closer look

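The response to rhCTHRC1 differed between cell backgrounds for most carriers by the test of the difference itself, edgeR's interaction term with Benjamini-Hochberg adjustment over all genes. Differences are between signed log2 changes. A positive value means that the log2 change in ADAM9i lay above that in WT, or that in Adam9-KO above that in Rosa26-KO. The median change of the 10 carriers was -1.52 in WT, 0.10 in ADAM9i, -1.08 in Rosa26-KO and -0.02 in Adam9-KO cells. Between ADAM9i and WT the difference was 2.49 for Slc7a11, 1.95 for Slc7a1, 1.81 for Slc7a5, 1.75 for Slc3a2 and 1.73 for Slc1a4. It was 1.59 for Slc6a9, 1.51 for Slc1a5, 1.34 for Slc38a1, 1.03 for Slc38a2 and 0.68 for Slc7a3. All 10 use the WT vehicle libraries, which stood apart from the other 21. Between Adam9-KO and Rosa26-KO, which do not use those libraries, the difference was 1.48 for Slc7a5, 1.30 for Slc7a11, 1.29 for Slc7a1, 1.20 for Slc3a2 and 1.13 for Slc1a4. It was 0.93 for Slc6a9, 0.57 for Slc38a1, 0.56 for Slc1a5 and 0.37 for Slc38a2.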

How the results depend on the processing

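With Rosa26-KO vehicle as the control of WT rhCTHRC1, 6 carriers in place of 10 were called, and the change turned positive for Slc1a5 (0.21), Slc1a4 (0.38), Slc6a9 (0.39) and Slc7a3 (1.47). With ADAM9i vehicle as the control it turned positive and was called for Slc7a11 (0.28), Slc7a5 (0.42), Slc3a2 (0.26), Slc7a1 (0.56), Slc7a3 (1.13), Slc1a4 (0.77), Slc1a5 (0.34), Slc38a1 (0.095) and Slc6a9 (1.05). Of 130 results for single carriers, the direction and side of the threshold held for 129 with RLE factors, 123 with library size alone, 129 with no filter, 128 with DESeq2 and 123 with limma on FPKM, and for 99 of 100 in 1 fit of all libraries and 886 of 900 with a library left out. DESeq2 called 1210 genes in the ADAM9i response, where edgeR called 500 higher and 249 lower, and 37 in the Adam9-KO response, where edgeR called 0. With a library left out, these counts were 397 to 638 and 0 to 3, and 1760 to 2433 genes differed between Adam9-KO and Rosa26-KO under vehicle, against 1184 higher and 1641 lower with all libraries. Same-numbered libraries did not deviate together (correlations from -0.05 to 0.05), so no pairing by number was detected. These correlations cannot show whether such libraries were prepared together. The replicate block kept 128 of 130 results, calling Slc6a9 higher in Adam9-KO vehicle (0.18, adjusted p = 0.0148 by edgeR) and losing Slc38a2 between ADAM9i and WT with rhCTHRC1 (0.08, adjusted p = 0.0563). For changes of call and direction the cause was not tested. Slc7a3, with 258 to 1372 counts per library, was measured least precisely.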
